A study of Mus musculus with 36 samples.

Results

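The 10 genes followed here surround the transcriptional coactivators YAP and TAZ and were measured in mouse pancreatic fibroblasts that had been cultured alone or in direct contact with 1 of 8 tumour cell lines. The genes were Yap1, Wwtr1, Tead1, Ankrd1, Amotl2, Ajuba, Lats2, Axl, Nuak2 and Crim1. Each was taken as the row of the read-count table that carries its symbol, which gave 10 of the 39017 genes listed, and all 10 passed the filter on low counts that 14439 genes passed. The fibroblasts were C57BL/6 cells that the labels call pancreatic fibroblasts, and the titles of the mono-culture libraries carry the letters PSC, which no label spells out. Co-cultures lasted 48 h, after which the 2 cell types were separated by flow sorting on GFP carried by the tumour cells. The 36 libraries fall into 9 groups of 4, which are fibroblasts grown alone (mono-culture), fibroblasts grown with tumour sub-clone E, H, K, M, N, T or V, and fibroblasts grown with KPC1, a line about which the labels say no more. Each co-culture group stands for 1 tumour line. No label states a genotype, an added agent, whether the mono-culture was sorted too, or whether the 4 libraries of a group came from separate cultures, so p-values measure the spread between these libraries, which may be technical.

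YAP and TAZ, encoded by Yap1 and Wwtr1, bind the TEAD family of DNA-binding proteins and switch on genes of growth, adhesion and matrix. The Hippo kinases, of which LATS2 is 1, phosphorylate both coactivators and hold them in the cytoplasm, and several target genes of the complex encode inhibitors that act back on it. In fibroblasts the pathway is known to respond to stiffness, cell shape and cell density, and transcript levels of Yap1 or Wwtr1 do not report where the proteins are in the cell.

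The promoters of these genes are shown first, because TEAD proteins recognise a short sequence, CATTCC, that a reader may want to see in place. RefSeq windows running from 250 bases before to 50 bases after a transcription start (GRCm38.p6) were found for 8 of the 10 genes, all but Tead1 and Nuak2. CATTCC, searched on both strands, occurred in a window of 8 of these 8 genes, against 4481 of all 27025 genes with a window (16.6%). Of 26 other Hippo pathway genes with a window, 8 held it (30.8%), as did 2 of 10 other genes of a YAP and TAZ target signature (20%). The AP-1 sequence TGANTCA, which overlaps CATTCC in no window of the 8 genes, was in none of them and in 8.97% of all genes. These letters say nothing of which factor binds there. Each match is printed next with 10 bases on either side, turned so that CATTCC reads 5′ to 3′, and the capitals mark the match. Numbers in the names give the bases to the RefSeq start site from the first base of the match read along the gene. In Ankrd1, Yap1, Wwtr1, Axl and Crim1 the match lies opposite to the gene, and this base is the last capital printed. From another Wwtr1 start site the same match is 170 upstream.
Ankrd1, 210 upstream: gtgagagggtCATTCCtttggcagtg
Ankrd1, 123 upstream: ggtgaattttCATTCCagacttagtg
Amotl2, 65 upstream: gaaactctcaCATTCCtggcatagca
Ajuba, 186 upstream: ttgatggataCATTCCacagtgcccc
Ajuba, 164 upstream: cccctccgcgCATTCCaactgtaaac
Yap1, 141 upstream: cgcgtcgctaCATTCCtgcagactcc
Wwtr1, 136 upstream: cgcctatctgCATTCCtttgagttta
Axl, 233 upstream: gtctggtaaaCATTCCtgtagaattt
Crim1, 79 upstream: catcctacctCATTCCcccccccgcc
Lats2, in the transcript: acattgttggCATTCCacgggcgtca
The matches of Ankrd1 lie on the plus strand at chr19:36120049-36120054 and chr19:36119962-36119967, opposite to the gene, and GENCODE M21 places both in an annotated UTR of Ankrd1. That of Amotl2 is on the plus strand, with the gene, at chr9:102717739-102717744 and inside an annotated Amotl2 UTR, and that of Lats2, on the plus strand and opposite to the gene, is at chr14:57746114-57746119 in a Lats2 UTR. The other matches, at chr14:54577842-54577847 and chr14:54577820-54577825 (minus strand, Ajuba), chr9:8004732-8004737 (plus strand, Yap1), chr3:57576041-57576046 (plus strand, Wwtr1), chr7:25788961-25788966 (plus strand, Axl) and chr17:78200169-78200174 (minus strand, Crim1), are outside annotated transcripts. A match is a run of letters, not a bound site.

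Library totals ran from 12532122 to 21985538 counts. All 11 fibroblast markers examined, Col1a1 and Pdgfrb among them, were detected in each mono-culture library, and in the KPC1 libraries 10 of 11 were, with Lum at 0.324 CPM on average. Levels are given as CPM, counts scaled to a library total of 1000000 after TMM adjustment. The summed level of 12 epithelial markers was 1.22 to 1.82 CPM in mono-culture, where Cldn4, Cldn6 and Esrp1 were at 0 in every library. In co-culture it was 31.9 to 233 CPM with clone V, 19.96 to 316 with clone K, 71.7 to 275 with clone H, 56.3 to 563 with clone M, 195 to 623 with KPC1, 267 to 519.6 with clone E, 308 to 863 with clone T and 447 to 692 with clone N, so every co-culture library lay above every mono-culture library. Krt8, Krt18 and Krt19 gave the highest group means in most groups, while Epcam stayed below 1 CPM in each group mean. The summed level of the fibroblast markers was 22342 ± 892 CPM in mono-culture (SD, n = 4). Its mean was lower with clone H (17773 ± 2168), clone T (18083 ± 820.5), clone V (17476 ± 4966) and KPC1 (15479.9 ± 1526), and higher with clone E (24584 ± 4386), clone K (28154 ± 5343), clone M (28209 ± 4922) and clone N (24967 ± 2308). Most of this sum was Col1a1, Col1a2 and Col3a1, at 7268, 5622 and 5168 CPM on average in mono-culture. With clones H, T and V and KPC1 the means of these collagens and of Dcn, Lum and Pdgfra were lower than in mono-culture. Those of Vim, Pdgfrb, Thy1, Fap and Postn were higher there, so the list did not move as one. The 3 markers of activated stellate cells, Acta2, Tagln and Des, summed to 184 ± 46.1 CPM in mono-culture, to 244 ± 83.2 with clone M, the lowest co-culture mean, and to 816 ± 328 with clone V and 881 ± 497 with clone K, the highest. Acta2 made up most of this sum (143 CPM in mono-culture), and the means of Acta2 and Tagln were higher in every co-culture. Des did not follow them, with means of 3.92 CPM in mono-culture, 1.35 with clone V and 3.86 with clone K. Summed levels were at most 15.4 CPM for 5 immune markers, with Cd3e at 0 throughout, 6.33 for endothelial and 10.4 for acinar markers in any library. The part that RNA of tumour cells had in the levels below was not tested, and in such bulk RNA fewer cells of a type and less RNA per cell cannot be told apart.

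Of the coactivators, Wwtr1 was higher in every co-culture and Yap1 was lower in 4 of them. Wwtr1 (chr3:57455649-57575910, minus strand, GRCm38) measured 276, 293, 273 and 263 CPM in the 4 mono-culture libraries. It measured 466, 486, 541 and 466 CPM with clone N, the highest mean, and 328, 365, 340.5 and 351 CPM with clone M, the lowest of the co-cultures. All 32 co-culture libraries were above all 4 of the mono-culture. With edgeR's quasi-likelihood test and Benjamini-Hochberg adjustment over the 14439 genes, called below an adjusted p of 0.05, Wwtr1 rose 1.77-fold with clone N (log2 fold change 0.83, SE 0.09, adjusted p = 1.64e-08) and 1.25-fold with clone M (log2 fold change 0.32, SE 0.09, adjusted p = 0.00739). The rises with the other lines were between 1.44-fold for clone K and 1.75-fold for clone T. In the mean of the 7 clones it rose 1.56-fold (log2 fold change 0.64, SE 0.07, adjusted p = 9.63e-09).

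Yap1 (chr9:7931999-8004596, minus strand) measured 173, 165, 167 and 175 CPM in mono-culture. It was at 118, 117, 133 and 126 CPM with KPC1, 114, 132, 128 and 145 with clone V and 145, 129.6, 127 and 136 with clone H. Each of these 12 libraries was below the lowest mono-culture library, and so were the 4 of clone T. The fall was to 0.727 of the mono-culture level with KPC1 (log2 fold change -0.46, SE 0.07, adjusted p = 2.54e-06), 0.762 with clone V (log2 fold change -0.39, SE 0.07, adjusted p = 2.55e-05), 0.791 with clone H (log2 fold change -0.34, SE 0.07, adjusted p = 2.10e-04) and 0.860 with clone T (log2 fold change -0.22, SE 0.07, adjusted p = 0.0123). These are the 4 lines in which the summed fibroblast markers, carried mostly by collagen genes, were also lower on average than in mono-culture. Other markers of that list, Vim, Pdgfrb, Thy1, Fap and Postn, were higher on average with these lines. The part of marker level in Yap1 was not tested. The call for clone T rested on clone T replicate 2, without which the adjusted p was 0.0504. With clone K the libraries were at 187, 200.2, 195 and 197 CPM, all above the mono-culture, and the difference was just short of the threshold (log2 fold change 0.20, SE 0.07, adjusted p = 0.0507), while DESeq2 (adjusted p = 0.0276) and a fit of only these 2 groups (adjusted p = 0.0297) called it higher. All 4 libraries of clone M (193, 200.4, 186 and 179.9 CPM) were above the mono-culture too, and were called higher only in the fit of the 2 groups (adjusted p = 0.0433). Clones E, M and N gave values of 0.05, 0.16 and 0.03 on the log2 scale that did not pass, and neither did the mean of the 7 clones (log2 fold change -0.07, SE 0.05, adjusted p = 0.265).

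**Figure D1:**
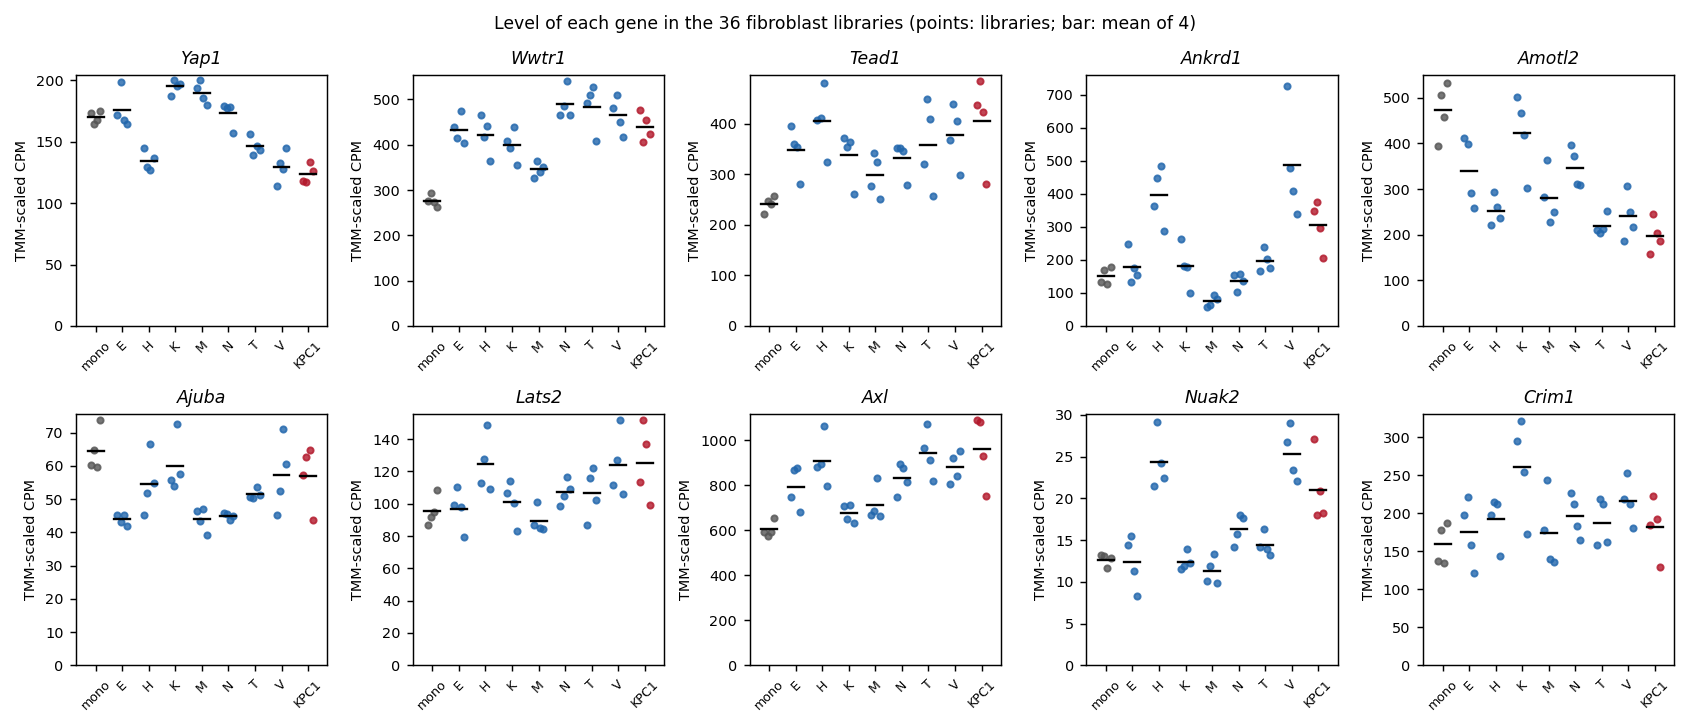
TMM-scaled CPM (vertical axes, from 0) of the 10 genes in the 9 groups (horizontal axes: mono-culture, clones E to V, KPC1), with 1 point per library and a bar at the mean of 4. Wwtr1 is above the mono-culture range in all 32 co-culture libraries, while Yap1 runs from a mean of 124 CPM with KPC1 to 195 with clone K, on both sides of the mono-culture mean of 170.0.

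The level of Yap1 differed among the 8 lines (1 F-test over 7 contrasts, adjusted p = 5.37e-10), with a range of 0.66 on the log2 scale. That of Wwtr1 did too (range 0.50, adjusted p = 1.67e-04). In order of mean CPM, Yap1 ran KPC1, clone V, clone H, clone T, mono-culture, clone N, clone E, clone M and clone K, and the only neighbours that differed were clone T and the mono-culture. For Wwtr1 the order was mono-culture, clone M, clone K, clone H, clone E, KPC1, clone V, clone T and clone N, and only the mono-culture and clone M differed as neighbours. Of the 36 pairs of groups 21 differed for Yap1 and 17 for Wwtr1, each pair adjusted over all genes but not over pairs.

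Divided by gene length, the 2 coactivators can be set against each other. The lengths behind the deposited RPKM are not given here. The size of a ratio of genes depends on them, while its comparison between groups does not. In RPKM, Wwtr1 was at 61.4 ± 1.72 and Yap1 at 33.6 ± 1.62 in mono-culture (SD, n = 4). The ratio of Wwtr1 to Yap1 within a library was 1.83 ± 0.129 there. It was 2.05 ± 0.117 with clone M, 2.30 ± 0.228 with clone K, 2.79 ± 0.342 with clone E and 3.19 ± 0.225 with clone N, and it reached 3.54 ± 0.384 with clone H, 3.73 ± 0.438 with clone T, 4.01 ± 0.346 with KPC1 and 4.08 ± 0.639 with clone V. The ratios of clone M overlapped those of the mono-culture (1.91 to 2.19 against 1.69 to 2.00), and the other 7 groups lay above. This ratio was chosen after the levels had been seen and carries no test.

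**Figure D2:**
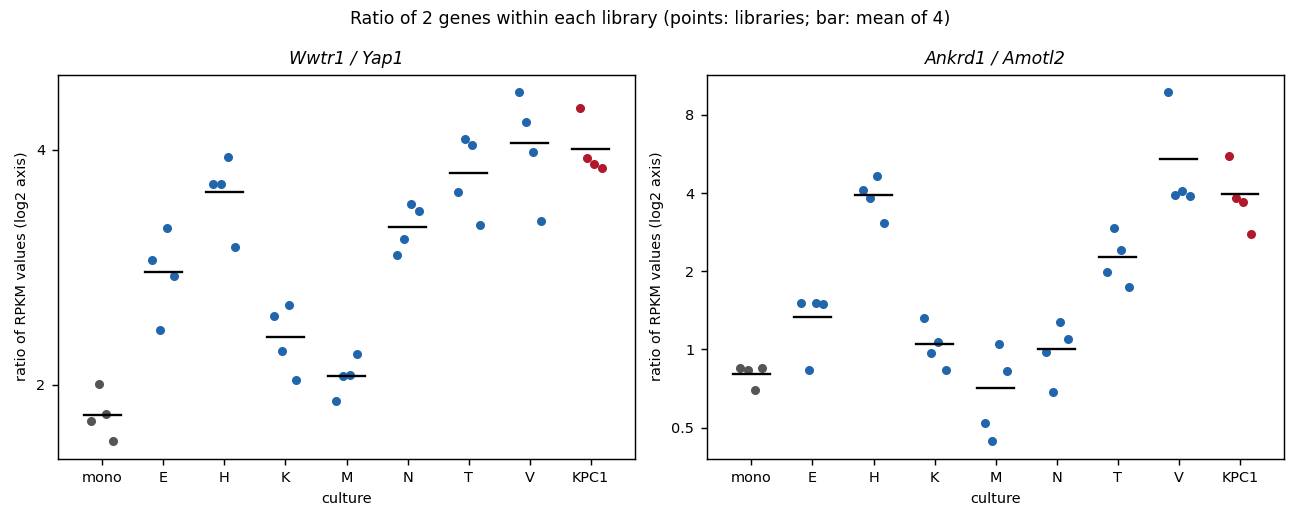
Ratio of the RPKM values of Wwtr1 to Yap1 (left) and of Ankrd1 to Amotl2 (right) in each library, on log2 axes, for the 9 groups, with a bar at the mean of 4. Clone M sits beside the mono-culture in both panels, and clones H and V and KPC1 sit high in both.

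Tead1 (chr7:112679318-112906807, plus strand), the TEAD family member in this set, was higher in 7 of the 8 co-cultures. Its libraries were at 222, 247, 241 and 257 CPM in mono-culture, and then 437, 484, 422 and 280.2 CPM with KPC1 and 406, 410.2, 479 and 324 CPM with clone H. Apart from 1 clone M library, every co-culture library was above the mono-culture range. Tead1 rose 1.68-fold with KPC1 (log2 fold change 0.75, SE 0.16, adjusted p = 2.27e-04), 1.68-fold with clone H (log2 fold change 0.74, SE 0.16, adjusted p = 2.95e-04) and 1.56-fold with clone V (log2 fold change 0.64, SE 0.16, adjusted p = 0.00114). With clone M the value was 0.30 (SE 0.16, adjusted p = 0.185), which passed in a fit of only these 2 groups (adjusted p = 0.0237). The smaller rises were not firm: that of clone K (adjusted p = 0.0340) was lost without any 1 of the mono-culture libraries or without clone K replicate 1, 2 or 3 (adjusted p = 0.0514 to 0.101), that of clone N (adjusted p = 0.0250) without mono-culture replicate 1 or clone N replicate 1, 2 or 3 (adjusted p = 0.0528 to 0.0899), and that of clone E (adjusted p = 0.0139) without mono-culture replicate 1 (adjusted p = 0.0529). Libraries of clones E, K, M, N and T together ran from 250.3 to 448 CPM. No difference among the 8 lines passed for Tead1 (range 0.44, adjusted p = 0.171), and 9 of its 36 pairs of groups differed.

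Ankrd1 (chr19:36111961-36120099, minus strand) encodes an ankyrin repeat cofactor that is widely used as a readout of YAP and TAZ. It had the widest spread over the lines of the 10 genes and moved in both directions. In mono-culture the libraries measured 133, 169, 128 and 180.1 CPM. They measured 728, 479, 408 and 338 CPM with clone V, 362, 448, 486 and 289 with clone H and 349.7, 375, 298 and 205 with KPC1, all 12 above the mono-culture. With clone M they were at 58.8, 64.3, 95.4 and 82.5 CPM, all 4 below it. The changes were 3.21-fold higher with clone V (log2 fold change 1.68, SE 0.26, adjusted p = 2.22e-06), 2.60-fold higher with clone H (log2 fold change 1.38, SE 0.26, adjusted p = 4.31e-05), 2.02-fold higher with KPC1 (log2 fold change 1.01, SE 0.25, adjusted p = 0.00105) and 2.03-fold lower with clone M (log2 fold change -1.02, SE 0.26, adjusted p = 0.00376). Libraries of clones E, K, N and T ran from 100.3 to 265 CPM and overlapped the mono-culture range, and none of these 4 differences passed (log2 fold changes 0.22, 0.25, -0.15 and 0.36).

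Among the 8 lines the range of Ankrd1 was 2.70 on the log2 scale (adjusted p = 3.50e-09), a 6.49-fold span from clone M to clone V. From low to high the order was clone M, clone N, mono-culture, clone E, clone K, clone T, KPC1, clone H and clone V. Only clone M and clone N differed as neighbours (log2 difference 0.87, SE 0.26, adjusted p = 0.0165), and 22 of the 36 pairs differed. The libraries of clone V held 31.9 to 233 CPM of epithelial markers and those of clone M 56.3 to 563 CPM, and the part of tumour cell RNA in the Ankrd1 values was not tested.

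**Figure D3:**
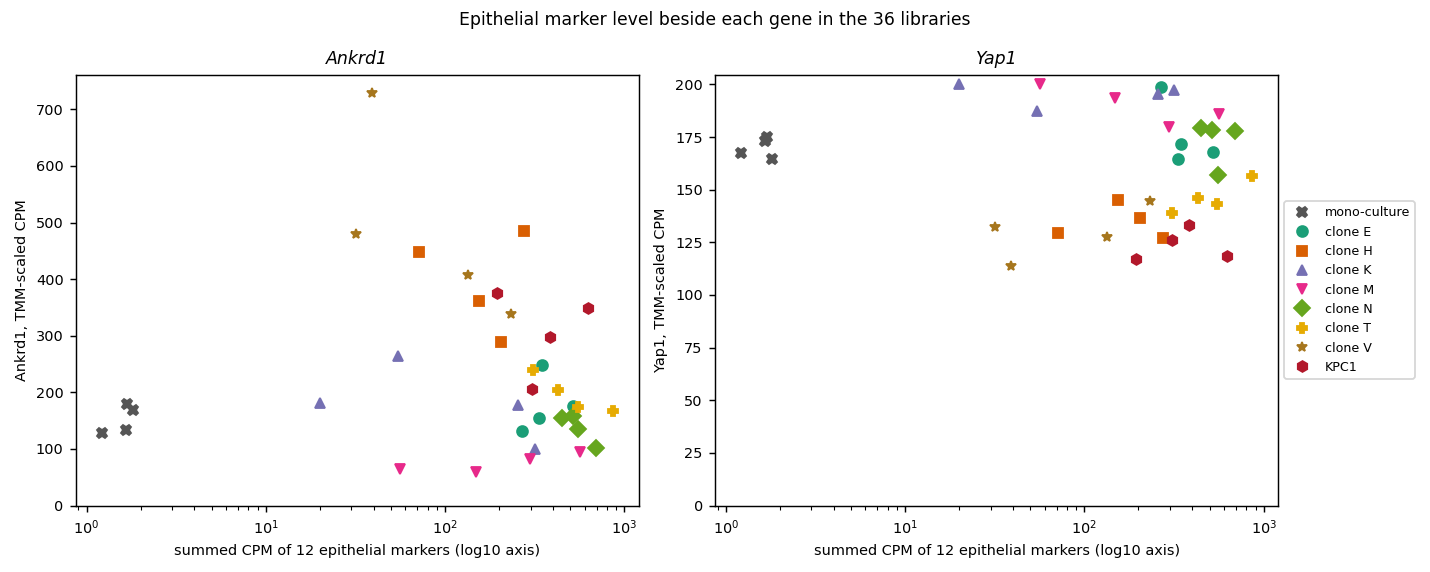
Summed CPM of 12 epithelial markers (horizontal, log10 axis) beside the CPM of Ankrd1 (left) and Yap1 (right, both vertical axes from 0) in the 36 libraries, with a symbol for each group. The 4 mono-culture libraries lie at 1.22 to 1.82 CPM of epithelial markers and the 32 co-culture libraries between 19.96 and 863 CPM.

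The other target genes without a known inhibitory role were Axl, Nuak2 and Crim1. Axl (chr7:25757273-25788705, minus strand), the receptor tyrosine kinase for GAS6, was higher in 6 of 8 co-cultures. It was at 593, 573, 594 and 656 CPM in mono-culture, 1091, 1079, 931 and 751 with KPC1 and 965, 1071, 911 and 818 with clone T. Clone K libraries overlapped the mono-culture, those of clone M lay just above it (668, 686, 833 and 665 CPM), and neither difference passed (adjusted p = 0.348 and 0.126). Axl rose 1.59-fold with KPC1 (log2 fold change 0.67, SE 0.11, adjusted p = 6.55e-06) and 1.56-fold with clone T (log2 fold change 0.64, SE 0.11, adjusted p = 2.16e-05), and the rises with clones E, H, N and V were 1.31-, 1.502-, 1.38- and 1.46-fold. Over clones E, H, N and V the libraries ran from 680.5 to 1063 CPM, all above the mono-culture. The level differed among the lines (range 0.51, adjusted p = 7.57e-04), with no pair of neighbours in the order apart.

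Nuak2 (chr1:132316126-132333488, plus strand), an AMPK-related kinase, was the least abundant of the 10, with 4.26 ± 0.248 RPKM in mono-culture (SD, n = 4) and 131 to 603 counts in any library. Its mono-culture libraries were at 13.2, 13.04, 11.6 and 12.8 CPM. With clone V they were at 26.8, 29.03, 23.4 and 22.1, with clone H at 21.4, 29.1, 24.3 and 22.4 and with KPC1 at 27.1, 18.03, 20.8 and 18.2 CPM, none of them overlapping the mono-culture. The rise was 2.00-fold with clone V (log2 fold change 0.999, SE 0.15, adjusted p = 1.23e-06), 1.92-fold with clone H (log2 fold change 0.94, SE 0.15, adjusted p = 4.49e-06) and 1.66-fold with KPC1 (log2 fold change 0.73, SE 0.15, adjusted p = 1.04e-04). Clone N libraries (14.2, 15.7, 18 and 17.6 CPM) also lay above the mono-culture, with an adjusted p of 0.0506, and clones E, K, M and T gave log2 values from -0.17 to 0.18 that did not pass. Nuak2 differed among the lines (range 1.17, adjusted p = 8.74e-09).

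Crim1 (chr17:78200248-78376592, plus strand), a transmembrane protein that binds bone morphogenetic proteins, differed with 1 line. Libraries measured 138, 178, 134 and 188 CPM in mono-culture and 295, 321, 255 and 173 CPM with clone K, 3 of the latter above the mono-culture range. The rise with clone K was 1.64-fold (log2 fold change 0.71, SE 0.20, adjusted p = 0.0129), and the call was lost without mono-culture replicate 1 (adjusted p = 0.0520) or clone K replicate 2 (adjusted p = 0.0580). The other 7 lines gave log2 values of 0.13 to 0.44, the highest with clone V (adjusted p = 0.0631). Their libraries ran from 122 to 253 CPM. Crim1 did not pass among the lines (range 0.58, adjusted p = 0.131), and 2 of its 36 pairs differed.

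Amotl2 (chr9:102716672-102733418, plus strand) encodes an angiomotin that binds YAP and TAZ outside the nucleus, and it is itself a target gene. It was lower in 7 of 8 co-cultures. Mono-culture libraries measured 394, 506, 458 and 532 CPM, co-cultures with KPC1 158, 246, 203 and 185 CPM and those with clone T 209, 204, 212 and 252 CPM. All libraries of clones H, M, T and V and of KPC1 were below the mono-culture range. The level fell to 0.419 of that in mono-culture with KPC1 (log2 fold change -1.26, SE 0.17, adjusted p = 3.44e-07), 0.464 with clone T (log2 fold change -1.11, SE 0.17, adjusted p = 4.11e-06), 0.508 with clone V (log2 fold change -0.98, SE 0.17, adjusted p = 1.43e-05) and 0.595 with clone M (log2 fold change -0.75, SE 0.17, adjusted p = 0.00151). Clone K gave 501, 466, 418 and 302 CPM and a log2 value of -0.16 (adjusted p = 0.556). The falls with clones E and N were weaker and depended on single libraries: the call for clone E (adjusted p = 0.0327) was lost without mono-culture replicate 2, 3 or 4 or clone E replicate 3 or 4 (adjusted p = 0.0537 to 0.126), and that for clone N (adjusted p = 0.0372) without mono-culture replicate 2, 3 or 4 or clone N replicate 3 or 4 (adjusted p = 0.0607 to 0.106). Amotl2 differed among the lines (range 1.09, adjusted p = 8.00e-06), with 19 of 36 pairs apart and no neighbours.

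Ankrd1 and Amotl2 both carry CATTCC in the windows printed above, and in clones H and V and in KPC1 the former was called higher and the latter lower. This pair was chosen after those calls had been seen, so a high ratio with these lines was given in advance, and the ratio carries no test. The ratio of their RPKM values was 0.807 ± 0.0725 in mono-culture (SD, n = 4) and 0.711 ± 0.281 with clone M. It was 1.01 ± 0.246 with clone N, 1.05 ± 0.207 with clone K, 1.34 ± 0.336 with clone E and 2.27 ± 0.523 with clone T. With clone H it was 3.92 ± 0.664, with KPC1 3.96 ± 1.16 and with clone V 5.43 ± 2.92. The SD of clone V came from 1 library at 9.81, the others being near 4. With clone M both genes were called lower.

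Lats2 (chr14:57689662-57758388, minus strand) encodes a kinase that inactivates YAP and TAZ. It was called higher with 3 lines. Mono-culture libraries were at 86.8, 91.5, 95.1 and 108 CPM, those with KPC1 at 114, 152, 137 and 99.2, with clone H at 113, 128, 149 and 109 and with clone V at 111, 127, 152 and 106 CPM. The clone H libraries lay just above the mono-culture, and 1 library each of clone V and KPC1 fell within it. The rise was 1.31-fold with KPC1 (log2 fold change 0.39, SE 0.13, adjusted p = 0.0114), 1.31-fold with clone H (log2 fold change 0.38, SE 0.13, adjusted p = 0.0151) and 1.301-fold with clone V (log2 fold change 0.38, SE 0.13, adjusted p = 0.0151). Each was lost without 1 library: KPC1 without KPC1 replicate 2 (adjusted p = 0.0761), clone H without mono-culture replicate 1 or clone H replicate 3 (adjusted p = 0.0574 and 0.0929) and clone V without mono-culture replicate 1 or clone V replicate 3 (adjusted p = 0.0538 and 0.0981). In clones E, K, M, N and T the libraries were at 79.6 to 122 CPM, on both sides of the mono-culture values, and no difference passed. Lats2 differed among the lines (range 0.49, adjusted p = 0.00675), and 10 of 36 pairs did.

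Ajuba (chr14:54567472-54577558, minus strand), a LIM domain protein that restrains the LATS kinases, was lower with 4 lines. It measured 60.2, 64.8, 59.7 and 74.0 CPM in mono-culture, 45.4, 43.2, 45.4 and 41.8 with clone E, 46.4, 43.5, 47.2 and 39.1 with clone M and 45.7, 45.6, 43.6 and 44.9 with clone N. These 12 libraries and the 4 of clone T (50.8, 50.2, 53.5 and 51.3 CPM) were below the mono-culture. The fall was to 0.680 of the mono-culture level with clone E (log2 fold change -0.56, SE 0.12, adjusted p = 6.83e-04), 0.681 with clone M (log2 fold change -0.55, SE 0.12, adjusted p = 0.00102), 0.695 with clone N (log2 fold change -0.52, SE 0.12, adjusted p = 8.95e-04) and 0.795 with clone T (log2 fold change -0.33, SE 0.12, adjusted p = 0.0234). The last was lost without mono-culture replicate 4 or clone T replicate 2 (adjusted p = 0.107 and 0.0561). For clones H, K and V and KPC1 the log2 values ran from -0.24 to -0.11 and did not pass. Other settings called Ajuba lower with clone H too, namely no scaling (adjusted p = 0.0216), at least 10 counts in every library (adjusted p = 0.0401) and limma-trend on log2(RPKM + 1) (adjusted p = 0.0196). The last also called it lower with clone V (adjusted p = 0.0474) and KPC1 (adjusted p = 0.0463), which left clone K alone without a call. Ajuba differed among the lines (range 0.45, adjusted p = 0.00215).

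**Figure D4:**
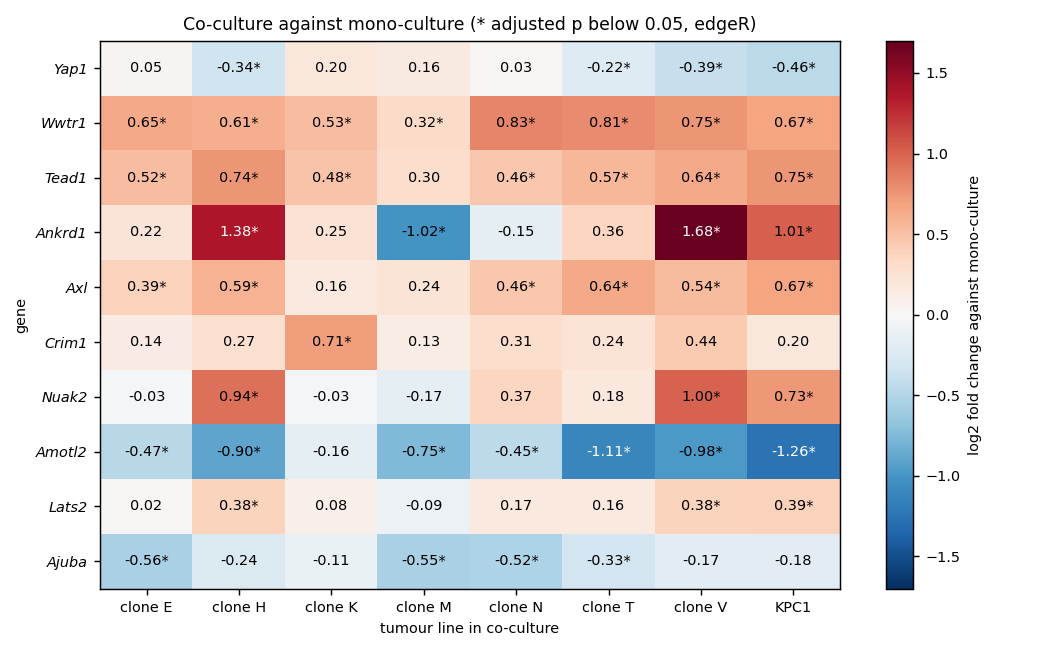
Log2 fold change against mono-culture (colour, red higher and blue lower, with the value printed) of the 10 genes (rows) in the 8 co-cultures (columns). An asterisk marks an adjusted p below 0.05 by edgeR, and Wwtr1 carries one in all 8 columns, Tead1 and Amotl2 in 7 and Crim1 in 1.

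Counted by line, and read against all genes tested, 8 of the 10 genes were called with KPC1 (6 higher, 2 lower), where 59% of all genes were called (30.5% higher, 28.5% lower). With clone V 8 were called (6 higher, 2 lower) against 58.3% of all genes (29.4% higher, 28.9% lower), and with clone H 8 (6 higher, 2 lower) against 54.2% (27.8% higher, 26.4% lower). Clone T had 6 called (3 higher, 3 lower) where 49.8% of all genes were (25% higher, 24.7% lower). For clone N the count was 5 (3 higher, 2 lower) beside 39% (19.7% higher, 19.2% lower), and it was 3 without clone N replicate 3. Clone E had 5 (3 higher, 2 lower) beside 32% (16.5% higher, 15.5% lower). Clone M had 4 (1 higher, 3 lower) beside 23% (12.2% higher, 10.8% lower). Clone K had 3, all higher, beside 19.1% (10.4% higher, 8.69% lower), and 1 without mono-culture replicate 1 or without clone K replicate 2. The lines with more genes called overall were thus those with more of the 10 called, and the 8 comparisons share the mono-culture libraries.

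In the mean of the 7 clones 6 of the 10 genes were called, 4 higher (Wwtr1, Tead1, Axl and Nuak2) and 2 lower (Amotl2 and Ajuba), where 49.2% of all genes were called (24.3% higher, 24.9% lower). The median log2 fold change of the 10 was 0.32, and that of all genes was 0.00578. Nuak2 (log2 fold change 0.32, SE 0.12, adjusted p = 0.0213) was lost without mono-culture replicate 3 (adjusted p = 0.0687) or 4 (adjusted p = 0.0545). Ankrd1, with lines on both sides, gave a mean of 0.39 (SE 0.20, adjusted p = 0.102). Among the 8 lines 8 of the 10 genes differed, where 72% of all genes did, and the median range of the 10, 0.55 on the log2 scale, was below that of all genes, 0.750.

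KPC1 was set against the mean of the 7 clones, a contrast that uses no mono-culture library. Here 5 of the 10 genes were called, 3 higher and 2 lower, beside 41.1% of all genes (22.3% higher, 18.8% lower). Yap1 (log2 fold change -0.39, SE 0.06, adjusted p = 4.87e-06) and Amotl2 (log2 fold change -0.57, SE 0.14, adjusted p = 0.00130) were lower with KPC1. Ankrd1 (log2 fold change 0.62, SE 0.18, adjusted p = 0.00645), Nuak2 (log2 fold change 0.41, SE 0.11, adjusted p = 0.00324) and Axl (log2 fold change 0.24, SE 0.08, adjusted p = 0.0201) were higher. The count fell to 3 without KPC1 replicate 1, when Axl and Nuak2 were lost and Nuak2 moved to 0.26, and to 3 without KPC1 replicate 2, when Ankrd1 and Axl were lost. It rose to 8 without KPC1 replicate 4. Lats2 (log2 fold change 0.24, SE 0.10, adjusted p = 0.0516) was close to the threshold, and Wwtr1 (log2 fold change 0.03, SE 0.07, adjusted p = 0.764) was near 0.

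Across the 9 group means, levels of several of the 10 genes rose and fell in step, given here as a description over 9 points that each average 4 libraries. Pearson's r of mean log2 CPM was 0.97 for Lats2 and Nuak2, 0.90 for Ankrd1 and Lats2 and 0.89 for Ankrd1 and Nuak2. Yap1 ran against these 3, with r of -0.90, -0.88 and -0.85. Amotl2 ran with Yap1 (0.77) and against Axl (-0.89), while Tead1, Wwtr1 and Axl went together (0.87, 0.84 and 0.81). Crim1 had no r above 0.44 with another of the 10.

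Such agreement was common over the whole table. Of 11685 other genes with a mean of at least 2 CPM, 915 had r above 0.9 with Yap1, 801 with Lats2, 707 with Axl, 586 with Ankrd1 and 566 with Nuak2, but 210 with Tead1, 159 with Amotl2, 105 with Wwtr1, 12 with Ajuba and 4 with Crim1. The most similar to Yap1 were Efemp2 (0.996) and Ephb3 (0.996), to Wwtr1 Cops8 (0.985) and Tm4sf1 (0.978), and to Tead1 Cbfa2t2 (0.978) and Rell1 (0.970). Uchl3 (0.988) and Pycr1 (0.984) were nearest to Ankrd1, Bcl2l2 (0.992) and Slc25a37 (0.988) to Axl, Mknk1 (0.985) and Tmcc3 (0.984) to Nuak2, and Mtss1l (0.950) and Dock5 (0.944) to Crim1. Fam180a (0.985) and Adamts5 (0.969) were nearest to Amotl2, Fgfr1op (0.994) and Nfil3 (0.984) to Lats2, and Tsc22d2 (0.959) and Cyld (0.955) to Ajuba.

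A pair of wider lists places the 10 genes in their pathway. Of 32 other Hippo pathway genes 31 were tested, all but Vgll2, and 17 were called in the mean of the 7 clones, 13 higher and 4 lower, where 49.2% of all genes were called (24.3% higher, 24.9% lower). Their median log2 fold change was 0.09, beside 0.00578 over all genes. Fat1, an atypical cadherin upstream of the kinases, rose from 189 ± 29.3 CPM in mono-culture (log2 fold change 1.03, SE 0.30, adjusted p = 0.00518). Rassf1, a scaffold that binds the MST kinases, rose from 23.9 ± 3.04 CPM to 87.1 ± 14.9 with clone V (log2 fold change 0.91, SE 0.10, adjusted p = 8.26e-09 for the mean), and Map4k4, a kinase that acts on LATS, rose too (log2 fold change 0.46, SE 0.10, adjusted p = 2.20e-04). The 3 largest falls among those called were in Vgll3 (log2 fold change -1.18, SE 0.15, adjusted p = 2.20e-07), which competes for TEAD proteins, Amot (log2 fold change -0.68, SE 0.09, adjusted p = 4.51e-07), an angiomotin like Amotl2, and Vgll4 (log2 fold change -0.43, SE 0.08, adjusted p = 2.13e-05), a TEAD corepressor. Fat1 was called with 7 of the 8 lines, all but clone V, and Rassf1 with 6, all but clones K and M. For Fat1 the calls with clones K, M, N and E were near the threshold (adjusted p = 0.0310, 0.0392, 0.0484 and 0.0496). Clone V gave a Fat1 value of 0.67 (adjusted p = 0.112), and no difference of Fat1 among the lines passed (adjusted p = 0.719). Vgll3 was lower with all 8 lines, and Amot with 6, all but clones K and M. The other TEAD genes gave 0.31 for Tead3 (adjusted p = 0.00227), 0.37 for Tead4 (adjusted p = 0.0439) and -0.07 for Tead2 (adjusted p = 0.412), and Lats1, the relative of Lats2, gave -0.01 (adjusted p = 0.941). These TEAD and Lats1 values were picked out for their kinship to Tead1 and Lats2 after they had been seen.

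The second list held 16 further genes of a published YAP and TAZ target signature, to which Ankrd1, Amotl2, Lats2, Axl, Nuak2 and Crim1 also belong. All 16 were tested and 13 were called in the mean of the 7 clones, 11 higher and 2 lower, with a median of 0.66. Over all genes the shares were 49.2% called, 24.3% higher and 24.9% lower. Igfbp3, which binds insulin-like growth factors, rose from 2.66 ± 1.13 CPM in mono-culture to 111 ± 37.8 with clone T (log2 fold change 3.71, SE 0.53, adjusted p = 1.30e-06 for the mean). Ctgf, a secreted matricellular protein, rose from 57.5 ± 21.7 to 696 ± 234 CPM with clone V (log2 fold change 2.50, SE 0.38, adjusted p = 3.81e-06), and Tgfb2, a TGF-beta ligand, from 16.7 ± 2.44 to 115 ± 14.9 CPM with clone N (log2 fold change 2.32, SE 0.19, adjusted p = 2.70e-11). The 2 that fell were F3, the coagulation tissue factor (log2 fold change -0.63, SE 0.11, adjusted p = 1.37e-05), and Asap1, an Arf GTPase-activating protein (log2 fold change -0.40, SE 0.10, adjusted p = 0.00133).

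By line, the fewest of the 16 were called with clone E, 7 (6 higher and 1 lower, beside 32% of all genes, 16.5% higher and 15.5% lower), and the most with clone N, 12 (11 higher and 1 lower, beside 39% of all genes, 19.7% higher and 19.2% lower). With clone M, where Ankrd1 and Amotl2 both fell, 7 of the 16 rose and 1 fell (23% of all genes were called, 12.2% higher and 10.8% lower), and Ctgf was the only 1 of the 3 leading genes that did not pass there (log2 fold change 0.85, adjusted p = 0.144). The median of the 16 was 0.83 with clone N and 0.23 with KPC1, while the median of the 10 genes was 0.24 with clone N and 0.53 with KPC1. Members of both lists respond to other signals too, and the part of YAP and TAZ in these levels was not tested.

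**Figure D5:**
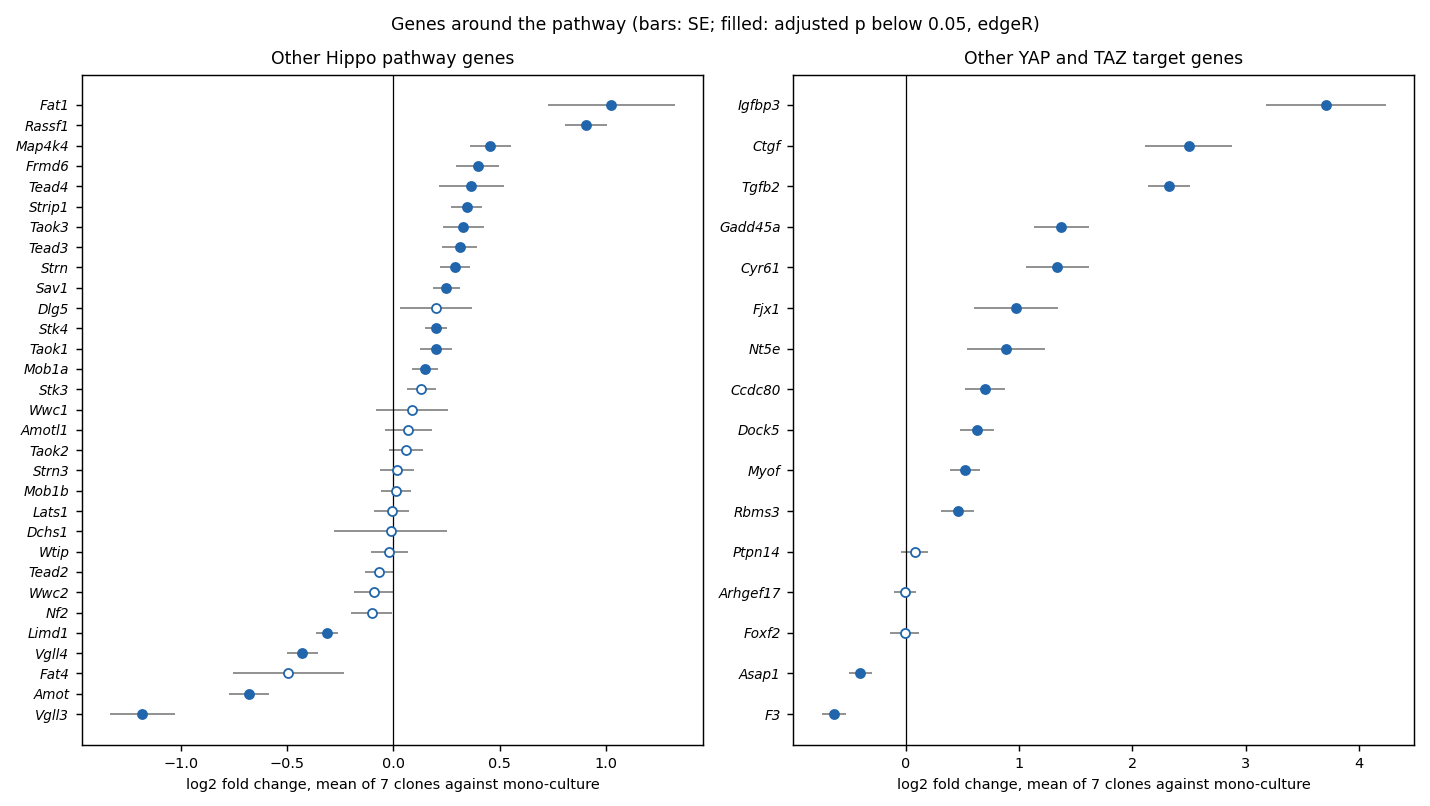
Log2 fold change (horizontal axes, mean of the 7 clones against mono-culture, bars for the SE) of 31 other Hippo pathway genes (left) and 16 other YAP and TAZ target genes (right). Filled points passed an adjusted p of 0.05 by edgeR, 17 on the left and 13 on the right, and the Hippo genes lie around a median of 0.09 while the targets have a median of 0.66.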

How the data were processed

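Poly(A) libraries that keep the strand were made from 200 ng of fibroblast RNA (14 PCR cycles) and sequenced in pairs of 76 bases. The authors deposited raw counts for 39017 genes, without any scaling, and RPKM, the count divided by gene length and by library total, for 37746 genes. The submitters' processing notes name STAR, featureCounts, edgeR and the build mm10, with no version, and strand use in counting is not given in the sources used here. Groups came from the labels. EdgeR 4.0.16 in R 4.3.3 was run on the counts with filterByExpr over the 9 groups, TMM scaling, robust dispersions and quasi-likelihood F-tests, with 1 coefficient per group over all 36 libraries and Benjamini-Hochberg adjustment over 14439 genes (threshold 0.05). The SE of a contrast is its log2 fold change over the square root of F, and a prior count of 1 entered log2 CPM. At totals of 12532122 to 21985538 each of the 10 genes had over 100 counts in every library.

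The 10 genes, the lists and the tests were chosen with earlier results of these data known. Named genes were the 10, the 3 highest and 3 lowest called genes of each list in the mean of the clones (the target list had 2 lower), and the 2 genes most like each of the 10. Promoter sequences are from RefSeq (GRCm38.p6) and gene positions from GENCODE M21 (GRCm38). A chi-square over genes for 54 pairs of libraries of the same group gave at least 5.63 per degree of freedom, so none was a copy or a second sequencing of another. It cannot tell whether libraries of a group came from separate cultures. Alternatives were RLE scaling, no scaling, no filter, a minimum of 10 counts in all libraries, DESeq2 1.42.0, limma-trend (limma 3.58.1) on log2(RPKM + 1) and log2(RPKM + 0.1), a replicate block, only the 2 groups compared, and each of the 36 libraries left out.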

Additional observations from a re-analysis of the deposited data

Results flagged for a closer look

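Within groups of 4, a library was flagged where its gap to the nearest other library, divided by the range of the 4, was above Dixon's critical value at the 95% level. Over 90 sets of 4, chance alone gives about 4.5 such flags, and 6 were found. Yap1 was low in clone N replicate 4, at 157 CPM against 178 to 179 CPM in the other 3 libraries, a gap of 0.9329 of the range. Tead1 was low in the same library, at 279 CPM against 345 to 353 CPM in the other 3 libraries, a gap of 0.9013 of the range, and in clone K replicate 4, at 261 CPM against 355 to 372 CPM in the other 3 libraries, a gap of 0.8428 of the range. Amotl2 was high in clone T replicate 4, at 252 CPM against 204 to 212 CPM in the other 3 libraries, a gap of 0.8312 of the range. Clone M replicate 2 was high for Lats2, at 101 CPM against 84.6 to 87.0 CPM in the other 3 libraries, a gap of 0.8568 of the range, and clone M replicate 3 for Axl, at 833 CPM against 665 to 686 CPM in the other 3 libraries, a gap of 0.8752 of the range.

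The response to co-culture differed among the 8 lines, by the F-test over lines, for 8 of the 10 genes. The range of log2 fold changes from the lowest to the highest line was 2.699 for Ankrd1, 1.166 for Nuak2, 1.092 for Amotl2, 0.6568 for Yap1, 0.5126 for Axl, 0.5023 for Wwtr1, 0.488 for Lats2 and 0.4486 for Ajuba. Ankrd1, Yap1, Lats2 and Nuak2 had lines on both sides of the mono-culture. With edgeR over all 36 libraries and no replicate block, no line was called higher for Yap1 and none lower for Lats2 or Nuak2. Wwtr1 had all 8 lines above the mono-culture.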

How the results depend on the processing

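No value for the 10 genes turned its direction under any alternative where it was called. RLE scaling left 110 of 110 calls as they were, DESeq2 107, no scaling 108 and at least 10 counts in every library 109. Without scaling the median of all genes moved by less than 0.1 on the log2 scale in each comparison with mono-culture, and the share of called genes that were higher fell, from 49.4% to 40.4% in the mean of the clones and from 51.3% to 42.6% with clone H, so that it was below 50% in every comparison. Without a filter Amotl2 with clone E (adjusted p = 0.0504) and Yap1 with clone T (adjusted p = 0.0543) were lost. Limma-trend on log2(RPKM + 1) lost Lats2 with clones H and V (adjusted p = 0.0506 and 0.0600), and called Yap1 lower in the mean of the clones (adjusted p = 0.0374), as did no scaling (adjusted p = 0.0382). With only the 2 groups compared in the fit, clone M had 7 genes called in place of 4, Yap1, Tead1 and Axl being added, and the cause was not tested. Leaving out single libraries gave 1 to 4 called genes for clone K, 3 to 6 for clone N and 3 to 8 for KPC1 against the mean of the clones.

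The replicate numbers are shared by the groups, but no label says what they mark. A running number in the library titles goes through the lines replicate by replicate, and the mono-culture libraries are numbered after all co-cultures. What this order marks is not stated, and its part in the contrasts with mono-culture was not tested. Deviations of same-numbered libraries met the rule for pairing in 0 of 8 line and mono-culture pairs and in 3 of 28 pairs of lines. Of the libraries, 7 of 32 correlated best with their own number in mono-culture and 55 of 112 in another line. A number that marked nothing would give 1 in 4, and the share between lines was above this while that with mono-culture was not. Tead1 was lowest in replicate 4 in 8 of 8 co-cultures, and Crim1 in 7. In mono-culture both were highest in replicate 4, at 257 and 188 CPM. With a replicate block all 10 genes differed among the lines in place of 8, Tead1 (adjusted p = 0.00496) and Crim1 (adjusted p = 0.00495) being added. It also added Tead1 with clone M (adjusted p = 0.0428), Yap1 with clone K (adjusted p = 0.0459), Ajuba with clone H (adjusted p = 0.0461), Nuak2 with clone N (adjusted p = 0.0343), Crim1 with clone V (adjusted p = 0.0117) and in the mean of the clones (adjusted p = 0.0291), and Tead1 and Lats2 for KPC1 against the clones (adjusted p = 0.0296 and 0.0173). The calls added against mono-culture rest on a pairing by number that the line and mono-culture libraries did not show. Of 360 pairs of groups 174 differed in place of 149, and no call of the 10 genes against mono-culture, among the lines or for KPC1 against the clones was lost. DESeq2 added Nuak2 with clone N (adjusted p = 0.0475) and Crim1 with clone V (adjusted p = 0.0488), and the fit of only 2 groups added both (adjusted p = 0.0142 and 0.0168) and Ankrd1 with clone T (adjusted p = 0.0381).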
